A study of Mus musculus with 24 samples.

Results

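The receptor tyrosine kinase gene Ret, the 4 co-receptor genes Gfra1 to Gfra4, the ligand genes Gdnf, Nrtn, Artn and Pspn, and the stress hormone gene Gdf15 were followed across adipose tissue of wild-type and STAT5B mutant mice. They were taken by symbol, which gave 10 of the 24421 genes counted in each of 24 libraries. Ret drew attention by the size of its difference between the sexes in Y665H mice, so its values in WT and Y665H are given as a description, with no test. All mice were C57BL/6 and 2 months old. STAT5B relays growth hormone and cytokine signals to the nucleus, and 1 of its tyrosines is replaced by phenylalanine in STAT5B-Y665F mice (Y665F) and by histidine in STAT5B-Y665H mice (Y665H). Wild-type mice (WT), Y665F mice and Y665H mice were each represented by 4 male and 4 female libraries of total RNA. No fat depot is named in the labels, which give adipose tissue only, and they do not say whether the mutant alleles were heterozygous or whether libraries came from separate litters. Sex and the place of sampling therefore cannot be told apart.

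RET signals when a ligand of the glial cell line-derived neurotrophic factor (GDNF) family binds a membrane-anchored GFRA co-receptor and the pair brings RET molecules together, which phosphorylate each other and pass the signal to the ERK and PI3 kinase pathways. GDNF acts chiefly through GFRA1, neurturin through GFRA2, artemin through GFRA3 and persephin through GFRA4. GDF15 acts on RET through a different co-receptor, GFRAL, which is known from the hindbrain. In peripheral tissues the family is best known for guiding and sustaining sympathetic, sensory and enteric neurons, and adipose tissue receives sympathetic nerves.

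Gfra1, Gdnf, Nrtn and Artn were high in the same male libraries, and the 250 bases before a RefSeq start of each are shown for that reason, 5′ to 3′ on the strand of the gene (RefSeq, GRCm38.p6). Gdnf had 2 such windows, of which the first is shown. The windows are chr19:58455399-58455648 (minus strand) for Gfra1, chr15:7809798-7810047 (plus strand) for Gdnf, chr17:56757549-56757798 (minus strand) for Nrtn and chr4:117929764-117930013 (minus strand) for Artn. The Gfra1 window lies inside the GENCODE gene span given below, and the Gdnf window ends before its gene span begins. These RefSeq starts thus differ from the GENCODE starts. Capitals mark matches to the 6 motifs searched on both strands.
Gfra1: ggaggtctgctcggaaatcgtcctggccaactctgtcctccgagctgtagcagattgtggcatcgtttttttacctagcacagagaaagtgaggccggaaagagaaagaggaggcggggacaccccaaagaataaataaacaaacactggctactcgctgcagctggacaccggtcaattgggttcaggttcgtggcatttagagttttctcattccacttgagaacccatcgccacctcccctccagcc
Gdnf: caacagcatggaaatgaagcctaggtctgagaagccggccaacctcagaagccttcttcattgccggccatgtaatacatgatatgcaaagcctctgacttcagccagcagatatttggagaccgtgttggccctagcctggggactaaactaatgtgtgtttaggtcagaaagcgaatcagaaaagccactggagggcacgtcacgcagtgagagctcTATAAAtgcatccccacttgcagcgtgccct
Nrtn: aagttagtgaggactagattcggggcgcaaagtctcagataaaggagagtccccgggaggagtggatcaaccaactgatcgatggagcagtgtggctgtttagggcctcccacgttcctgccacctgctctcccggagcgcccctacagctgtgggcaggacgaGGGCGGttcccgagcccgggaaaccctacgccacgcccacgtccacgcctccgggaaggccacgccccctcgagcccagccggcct
Artn: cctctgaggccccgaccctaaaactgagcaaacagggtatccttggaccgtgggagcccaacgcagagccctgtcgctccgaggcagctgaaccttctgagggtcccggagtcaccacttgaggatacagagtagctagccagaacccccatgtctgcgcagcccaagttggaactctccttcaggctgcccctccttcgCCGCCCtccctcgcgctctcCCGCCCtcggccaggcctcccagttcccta
The Gdnf window held a TATA box (TATAAA) that began 31 bases before the start. The Nrtn window held a GC box (GGGCGG) at 86 bases before the start, and the Artn window held it on the other strand (CCGCCC) at 50 and 30 bases before the start. No searched motif was found in the Gfra1 window. Among 32851 windows of the same length in the RefSeq table, a TATA box was in 12.4% and a GC box in 32.7%. The other motifs searched were the STAT motif TTCNNNGAA (7.02% of windows), the palindromic androgen response element (0.00913%), the E-box CACGTG (6.02%) and the cyclic AMP response element TGACGTCA (1.55%), and none of these was in the 4 windows shown. The 4 windows had no motif in common.

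The libraries held 21.0 to 41.3 M gene counts (M, 1e6; median 34.6 M), and every level is scaled to 1e6 gene counts of its library (CPM). A count of 0 allows up to 0.0726 to 0.143 CPM, taking 3 counts as the limit. Marker genes of adipocytes summed to 9223 to 33532 CPM and were detected in every library. Epididymis markers (8 genes, among them the protease-like gene Adam7 and the lipocalin gene Lcn5) summed to over 100 CPM in 5 of the 12 male libraries, which were WT male 2 (12109 CPM), WT male 3 (1655 CPM), WT male 4 (492 CPM), Y665H male 3 (511 CPM) and Y665F male 1 (289 CPM). In the 12 female libraries that sum was at most 0.858 CPM, with 4 to 8 of the 8 genes at 0. Markers of mammary or other epithelium were high in Y665F female 3 (1238 CPM, against 76.0 to 261 CPM in the other 11 female libraries). In bulk tissue, fewer cells of a type and less RNA per cell cannot be told apart.

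Compared per kilobase of exons, Ret and Gfra2 had the highest medians over the 24 libraries, at 6.80 and 6.39 CPM per kilobase. Gfra4 followed at 2.03 and Nrtn at 0.949 CPM per kilobase. Gfra1 (0.550), Gfra3 (0.504), Pspn (0.288), Gdf15 (0.280) and Artn (0.236) were lower, and Gdnf was lowest at 0.0984 CPM per kilobase. The order differed in WT males, where Gfra1 had a mean of 13.3 ± 21.5 CPM per kilobase, Ret of 5.66 ± 1.46, Gfra2 of 4.80 ± 1.57 and Nrtn of 4.19 ± 2.88 (SD, n = 4).

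Ret (chr6:118151745-118197718, minus strand, GRCm38) encodes the shared receptor. In Y665H females it was at 12.7, 16.8, 15.0 and 10.5 CPM. In WT females it was at 46.7, 38.7, 31.4 and 51.2 CPM, and in Y665F females at 43.2, 61.6, 21.4 and 37.7 CPM. All 4 Y665H females lay below every other library of the study; ranges of Y665H and WT females were apart for 13.3% of all tested genes, and those of Y665H and Y665F females for 28.1%. In males the order was different: Ret was at 70.0, 68.6, 77.8 and 61.3 CPM in Y665H, at 76.3, 66.6, 65.9 and 62.1 CPM in Y665F, and at 47.6, 45.3, 33.5 and 26.6 CPM in WT. All 8 mutant males lay above all 4 WT males, as groups do for 8.85% (Y665F) and 3.6% (Y665H) of all tested genes in either direction, and the 2 mutant groups of males overlapped.

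The order of the group means was Y665H males (69.4 ± 6.74 CPM), Y665F males (67.7 ± 6.06), WT females (42.0 ± 8.75), Y665F females (41.0 ± 16.6), WT males (38.3 ± 9.89) and Y665H females (13.7 ± 2.71; SD, n = 4 in each). Neighbouring ranges were apart at 2 places in this order, between Y665F males and WT females and between WT males and Y665H females. The other neighbours did not differ beyond their spread. The fitted log2 difference between Y665H and WT was -1.60 (SE 0.18) in females and 0.87 (SE 0.21) in males. Between Y665F and WT it was -0.16 (SE 0.30) in females and 0.87 (SE 0.20) in males, against the same WT libraries. Y665H and Y665F differed by -1.44 (SE 0.31) in females and by -0.01 (SE 0.11) in males.

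Males exceeded females for Ret by 2.19 (SE 0.15) on the log2 scale in Y665H and by 0.74 (SE 0.29) in Y665F, while in WT the difference was -0.27 (SE 0.24). The comparison within Y665F is the only one of Ret that used none of the libraries it was chosen on. It did not pass the test (edgeR adjusted p 0.112), although the lowest male (62.1 CPM) lay just above the highest female (61.6 CPM). Ranges were apart in this way for 24.8% of all tested genes. Without Y665F female 2, that highest female, the difference was 1.02 (edgeR adjusted p 0.0455). Leaving out the female nearest the males widens the difference, so that fit does not count as a pass. The effect of the mutation in males minus that in females was 2.46 (SE 0.30) for Y665H, the contrast that Ret was chosen on, and 1.02 (SE 0.40) for Y665F. Without the 5 male libraries with over 100 CPM of epididymis markers, the Y665H minus WT difference in males was 0.45 (SE 0.21), with WT male 1 as the only WT male left, and the sex difference in its effect was 2.02 (SE 0.34). In the WT males that had such markers, Ret ran from 26.6 to 45.3 CPM, against 47.6 CPM in WT male 1. The part of this tissue in the male values was not tested.

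**Figure D1:**
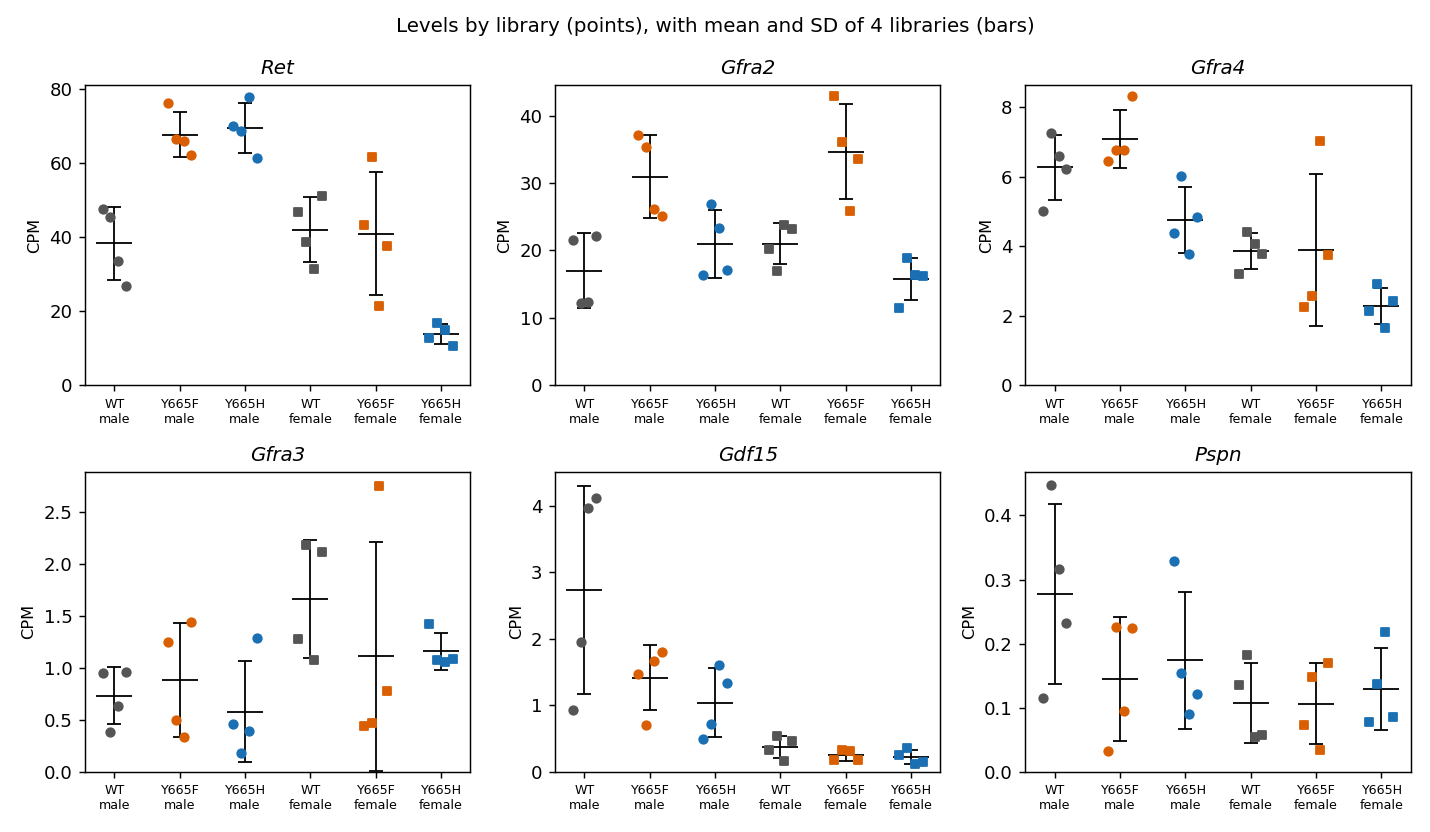
Levels of 6 of the genes in CPM (vertical axes, each from 0) in the 6 groups of 4 libraries (horizontal axes). Points are libraries, circles for males and squares for females, and bars give the mean and SD. For Ret, the 4 Y665H females sit between 10.5 and 16.8 CPM and the 8 mutant males between 61.3 and 77.8 CPM.

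Markers of nerve tissue overlapped between Y665H and WT females. The 8 neuron genes summed to 10.2 to 12.0 CPM in Y665H females and 9.52 to 15.6 CPM in WT females, and the 10 Schwann cell genes to 88.3 to 184 and 99.4 to 138 CPM. Only 2 of the 8 neuron genes averaged 1 CPM or more in females, so their sum says little about the rest. Tubb3 was at -0.97 and Snap25 at 1.49 on the log2 scale, and neither passed (edgeR adjusted p 0.109 and 0.217). Adipocyte markers summed to 30282 to 33532 CPM in Y665H females, above the 24884 to 29645 CPM of WT females. Single genes of that list did not move together. Cfd was higher in Y665H females (log2 difference 0.85, SE 0.13, edgeR adjusted p 0.0210) and Lep lower (-1.06, SE 0.18, edgeR adjusted p 0.0250). No other gene of the list was called, with Adipoq at 0.04 and Plin1 at -0.0005. Thermogenic adipocyte markers were at 42.5 to 200 CPM in Y665H females, 40.1 to 84.4 CPM in WT females and 11.0 to 20.4 CPM in Y665F females. The part of these cells in the Ret values was not tested.

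Over the 24 libraries, the genes whose log2(CPM + 1) followed Ret most closely among the 14838 genes that averaged 1 CPM or more were Atp6v0e2, a subunit of the proton pump of acidic organelles (Pearson r = 0.92), Rasgrf2, an exchange factor for RAS proteins (0.91), Arhgef10 (0.90), Tln2, a talin that links integrins to actin (0.90), and Lrrc3 (0.90). These r values describe libraries that share genotype, sex and tissue composition, and n is 24. Each of the 5 genes had its lowest group mean in Y665H females, as Ret did. Picking genes for likeness to Ret in these libraries largely fixes that, so it is no separate result. Rasgrf2 was at 15.6 ± 4.03 CPM there, against 34.5 ± 5.86 in WT females, 57.2 ± 8.65 in Y665H males and 33.6 ± 14.3 in WT males (SD, n = 4). Tln2 was at 150.0 ± 14.8 CPM in Y665H females and 246.3 ± 24.0 CPM in WT females. With the mean of each group taken off, the closest genes were Mest (r = 0.84), which is known to mark adipose tissue expansion, Kng2 (0.82), whose counts are uncertain because of its near-identical copy Kng1, Lppr4 (0.80), Txndc15 (0.79) and Lhfpl2 (0.78). Of these, only Mest had its lowest mean in Y665H females, at 25.5 ± 11.4 CPM against 71.5 ± 20.4 CPM in WT females and 216.5 ± 60.3 CPM in Y665H males. Kng2, Lppr4, Txndc15 and Lhfpl2 had theirs in WT males, and Txndc15 had its highest mean in Y665H females (54.0 CPM). None of the co-receptors or ligands was in either set of closest genes. Over the 24 libraries Gfra4 had an r of 0.51 with Ret and Gfra2 of 0.47. With the group means taken off, r was 0.27 for Gfra2 and negative for the other members that averaged 1 CPM or more. It was -0.64 for Gfra4, -0.51 for Nrtn, -0.48 for Gfra3, -0.24 for Gdf15 and -0.13 for Gfra1.

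**Figure D2:**
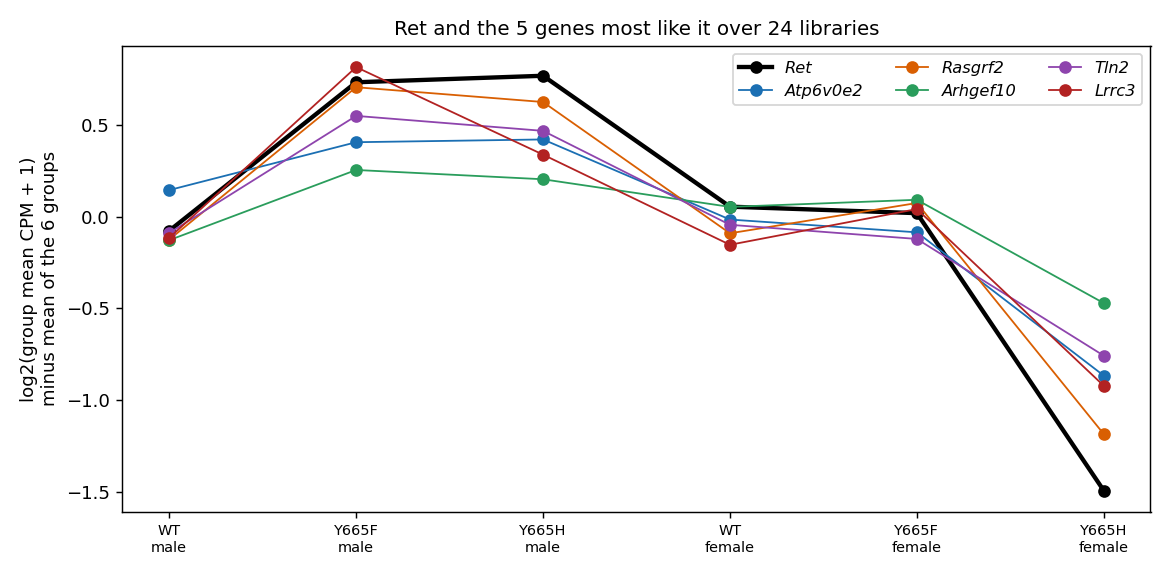
Group means of Ret and of the 5 genes most like it over 24 libraries, as log2(mean CPM + 1) minus the mean of the 6 groups (vertical axis), for the 6 groups (horizontal axis). All 6 lines have their lowest point in Y665H females, where Ret is lowest of all. The choice of genes by likeness to Ret largely fixes this, and the lines join groups only to guide the eye.

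Gfra2 (chr14:70890120-70979838, plus strand, GRCm38) encodes the co-receptor preferred by neurturin, and it was highest in the Y665F groups of both sexes. In females it was at 43.0, 36.0, 25.9 and 33.5 CPM in Y665F, at 20.2, 17.0, 23.7 and 23.2 CPM in WT, and at 11.5, 18.9, 16.3 and 16.2 CPM in Y665H. In males it was at 37.1, 35.4, 26.2 and 25.1 CPM in Y665F, at 21.5, 12.1, 12.3 and 22.1 CPM in WT, and at 16.4, 26.9, 23.2 and 17.1 CPM in Y665H. The Y665F libraries lay above all WT libraries of their sex, and in females also above all Y665H libraries. The ranges of WT and Y665H overlapped in both sexes.

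Gfra2 was lower in Y665H than in Y665F females (log2 difference -1.005, SE 0.18, edgeR adjusted p 0.00870), with 15.7 ± 3.08 against 34.6 ± 7.05 CPM (SD, n = 4). It was the only one of the 7 tested co-receptors and ligands called there, where 17.4% of all tested genes were called at an adjusted p under 0.05 (8.59% lower), and it kept its call when any of the 8 libraries was left out (edgeR adjusted p at most 0.0292). Against WT, the log2 difference of Y665F in females was 0.59 (SE 0.17, edgeR adjusted p 0.0942) and in males 0.92 (SE 0.27, edgeR adjusted p 0.228), neither of which passed. Without Y665F female 3, the lowest of its group, the first was 0.72 with an edgeR adjusted p of 0.0240. That omission widens the difference and does not count as a pass. Ranges of Y665F and WT were apart for 22.9% of all tested genes in females and 8.85% in males. Those of Y665H and Y665F females were apart for 28.1%. Y665H differed from Y665F in males by -0.61 (SE 0.22, edgeR adjusted p 0.207) and from WT females by -0.41 (SE 0.14, edgeR adjusted p 0.132).

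Macrophage and B cell markers were highest in Y665F females among the females, as was Gfra2. The 6 macrophage genes summed to 1048 to 1675 CPM in Y665F females, 717 to 996 CPM in WT females and 576 to 817 CPM in Y665H females, and 4 of the 6 were lower in Y665H than in Y665F females (edgeR adjusted p under 0.05), where 8.59% of all tested genes were called lower. The 6 B cell genes summed to 16.2 to 26.2, 6.43 to 10.1 and 6.06 to 9.63 CPM in these groups. In males the macrophage sums overlapped, at 902 to 1404 CPM in Y665F, 881 to 1245 CPM in Y665H and 486 to 918 CPM in WT. The B cell sums of males were 13.4 to 28.2, 8.34 to 18.9 and 4.80 to 11.1 CPM in these groups, with Y665F above WT. The 10 T and innate lymphoid cell genes were also highest in Y665F females, at 164 to 250 CPM. They were at 104 to 133 CPM in WT females and 105 to 149 CPM in Y665H females. In males they were at 148 to 200 CPM in Y665F, 134 to 156 CPM in Y665H and 118 to 143 CPM in WT. The part of these cells in the Gfra2 values was not tested.

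Gfra4 (chr2:131039632-131043088, minus strand, GRCm38, a gene that contains the microRNA gene Mir6973b on its own strand) encodes the co-receptor preferred by persephin, and it was higher in males than in females. Y665H males were at 4.38, 6.02, 3.78 and 4.84 CPM and Y665H females at 2.14, 2.91, 1.65 and 2.41 CPM. The ranges did not overlap (32.5% of all tested genes), and the log2 difference of 0.92 (SE 0.24) was called (edgeR adjusted p 0.0179) and kept its call without any of the 8 libraries (edgeR adjusted p at most 0.0469). WT males were at 5.01, 7.26, 6.59 and 6.22 CPM and WT females at 3.20, 4.41, 4.06 and 3.79 CPM, a log2 difference of 0.54 (SE 0.19) that did not pass (edgeR adjusted p 0.0911) although the ranges were apart (25.2% of all tested genes). It fell under the threshold without WT male 1 (0.61, edgeR adjusted p 0.04996), the lowest of the WT males, an omission that widens the difference. In Y665F, males were at 6.45, 6.78, 6.77 and 8.31 CPM and females at 2.23, 2.57, 7.04 and 3.73 CPM, a log2 difference of 0.89 (SE 0.33, edgeR adjusted p 0.0983). Y665F female 3 stood among the males, and leaving it out widened the difference to 1.31, with an edgeR adjusted p of 0.0121.

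The mean of Gfra4 was lowest in Y665H within each sex. The 4 Y665H females lay below the 4 WT females (log2 difference -0.75, SE 0.20, edgeR adjusted p 0.0729), and the 4 Y665H males below the 4 Y665F males (-0.61, SE 0.19, edgeR adjusted p 0.152). Ranges were apart for 13.3% and 12.5% of all tested genes in these comparisons, and neither difference passed. Y665H females overlapped Y665F females (-0.61, SE 0.35, edgeR adjusted p 0.257), and Y665H males overlapped WT males (-0.37, SE 0.23, edgeR adjusted p 0.421). The order of the means was Y665F males (7.08 ± 0.836 CPM), WT males (6.27 ± 0.943), Y665H males (4.75 ± 0.946), Y665F females (3.90 ± 2.19), WT females (3.86 ± 0.509) and Y665H females (2.28 ± 0.527; SD, n = 4). Only the last place in this order was apart from its neighbour by range.

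Gfra3 encodes the co-receptor preferred by artemin and was low throughout, at 0.180 to 2.75 CPM. WT males were at 0.950, 0.384, 0.633 and 0.955 CPM and WT females at 1.28, 2.18, 1.08 and 2.11 CPM. All 4 males lay below all 4 females, as groups do for 25.2% of all tested genes in either direction. The log2 difference of -1.33 (SE 0.38) narrowly missed the threshold (edgeR adjusted p 0.0537). Without WT male 1, near the top of its group, it was -1.51 (edgeR adjusted p 0.0350). In Y665H the difference between the sexes was -1.17 (SE 0.49, edgeR adjusted p 0.103). It was -1.90 (edgeR adjusted p 0.00816) without Y665H male 4, which at 1.28 CPM was the highest of its group. Leaving out a high male widens these differences, so neither omission counts as a pass. In Y665F the difference between the sexes was -0.30 (SE 0.68, edgeR adjusted p 0.786), with Y665F female 3 at 2.75 CPM and the other 3 females at 0.440, 0.473 and 0.781 CPM, and it turned to 0.63 without that library. Without Y665F female 3, Gfra3 was lower in Y665F than in WT females by 1.67 on the log2 scale (log2 difference -1.67, edgeR adjusted p 0.0372) and higher in Y665H than in Y665F females by 1.17 (edgeR adjusted p 0.0264), and neither was called with all libraries.

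Gfra1 (chr19:58235604-58455909, minus strand, GRCm38, overlapped by the antisense gene Gm16277) encodes the GDNF co-receptor and varied more between WT males than any other member. WT males were at 1.58, 248.4, 29.5 and 12.3 CPM, and WT females at 3.09, 2.36, 3.31 and 2.02 CPM. The ligand genes Nrtn, for neurturin (chr17:56751325-56757530, minus strand), and Artn, for artemin (chr4:117926162-117929763, minus strand), had their low value in the same library. Nrtn was at 0.921, 8.02, 4.66 and 3.53 CPM in WT males and at 0.515, 1.19, 1.02 and 0.491 CPM in WT females. Artn was at 0.691, 2.62, 2.82 and 1.79 CPM in WT males and at 0.190, 0.622, 0.349 and 0.289 CPM in WT females. WT male 1, which had 1.06 CPM of the epididymis markers, was close to the females for Gfra1 and Nrtn, while the 3 WT males with 492 to 12109 CPM of these markers were above all WT females for both genes.

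Within WT, Artn was called higher in males with a log2 difference of 2.27 (SE 0.52, edgeR adjusted p 0.0300) and Nrtn by 2.24 (SE 0.62, edgeR adjusted p 0.0489), while Gfra1 missed the threshold at 4.603 (SE 1.34, edgeR adjusted p 0.0556). These calls did not outlast the loss of single libraries. Artn was lost without WT male 2 or 3 or any WT female (edgeR adjusted p up to 0.0976), and Nrtn without WT male 2, 3 or 4 or any WT female (up to 0.130). Without WT male 1, the lowest of the WT males for Gfra1, that gene was called at 4.98 (edgeR adjusted p 0.0114), an omission that widens the difference. With WT male 1 as the only male left, the differences were 0.84 for Artn, 0.11 for Nrtn and -0.84 for Gfra1. That single library is assumed in the fit to vary like the females, so no p is given.

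Among mutant males, the same genes were high in single libraries. Y665F male 4 was at 8.15 CPM for Gfra1, 6.13 for Nrtn and 2.53 for Artn, against at most 4.24, 0.834 and 0.674 CPM in the other 3 Y665F males. Y665H male 3 was at 14.4 CPM for Gfra1, against 1.98 to 3.75 CPM in the other 3, and at 1.72 CPM for Nrtn and 1.39 CPM for Artn, the highest of its group. Y665F female 3 was at 12.0 CPM for Gfra1, 3.57 for Nrtn and 4.16 for Artn, above the 11 other females for all 3 genes. Epithelium markers were also high in these libraries, at 477 CPM in Y665F male 4, 363 CPM in Y665H male 3 and 1238 CPM in Y665F female 3, and the first and last of these had little epididymis signal, 13.2 and 0.858 CPM. The part of epithelial and epididymal RNA in these values was not tested.

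Gdnf (chr15:7810846-7837575, plus strand, GRCm38), the founding ligand of the family, had no count in 2 male libraries, Y665F male 3 and Y665H male 2. In WT males it was at 0.0576, 2.21, 3.02 and 2.00 CPM, in Y665F males at 0.257, 0.0753, 0 and 2.12 CPM, and in Y665H males at 0.0330, 0, 0.877 and 0.242 CPM. It was thus high in the male libraries that were high for Nrtn and Artn. In WT females, where epididymis markers were near 0, it was at 1.36, 0.207, 0.618 and 2.28 CPM and followed neither gene. Across the 12 males, log2(CPM + 1) of Gdnf correlated with that of Artn at r = 0.96 and of Nrtn at 0.93, and Gfra1 with these 3 genes at 0.80 to 0.86. Across the 12 females, the r of Nrtn with Artn was 0.89 and that of Gdnf with Artn 0.01. These values describe libraries that share tissue composition and depth. No difference of Gdnf was called in the 9 comparisons that tested it.

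**Figure D3:**
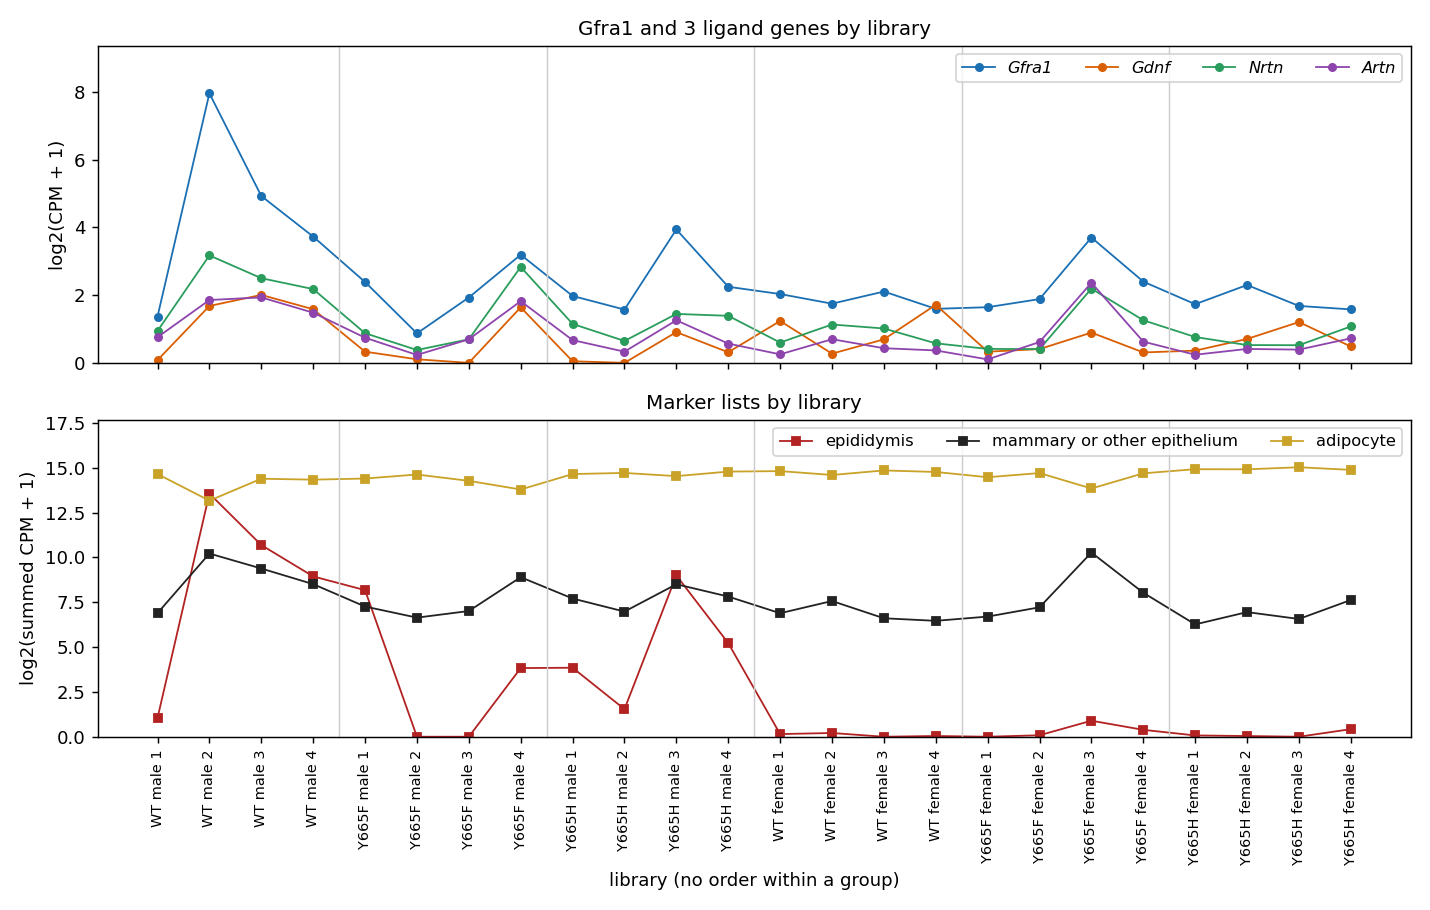
Gfra1, Gdnf, Nrtn and Artn as log2(CPM + 1) (upper panel) and the summed CPM of 3 marker lists as log2(sum + 1) (lower panel) in the 24 libraries; vertical lines part the 6 groups, and joined points only guide the eye. The peaks of the upper panel in WT male 2, WT male 3, Y665F male 4, Y665H male 3 and Y665F female 3 stand over peaks of the epithelium list, and those of WT male 2 and 3 and Y665H male 3 also over peaks of the epididymis list.

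Pspn, for persephin (chr17:56999457-57000018, minus strand, GRCm38), was at 0.0321 to 0.448 CPM, with 13 to 37 counts in all over the 4 libraries of a group, and passed the filter on low counts in none of the 11 comparisons. Its order among groups is not readable at this depth.

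Gdf15 (chr8:70629393-70632456, minus strand, GRCm38) encodes a hormone of cell stress that reaches RET through GFRAL, and it was higher in males than in females in each genotype. Gfral itself had no count in any of the 24 libraries. Gdf15 was at 1.48, 0.703, 1.67 and 1.80 CPM in Y665F males and at 0.183, 0.325, 0.309 and 0.170 CPM in Y665F females. Y665H males were at 0.494, 0.720, 1.60 and 1.33 CPM, and Y665H females at 0.258, 0.357, 0.124 and 0.142 CPM. WT males were at 0.921, 1.95, 3.97 and 4.11 CPM, and WT females at 0.326, 0.544, 0.161 and 0.463 CPM. In each genotype every male lay above every female, from 30 to 55 counts in all over the 4 females of a group. Ranges of the sexes were apart for 25.2% of all tested genes in WT, 24.8% in Y665F and 32.5% in Y665H.

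The log2 difference between the sexes in Gdf15 was 2.49 (SE 0.37, edgeR adjusted p 0.00811) in Y665F, 2.05 (SE 0.48, edgeR adjusted p 0.0118) in Y665H and 2.69 (SE 0.55, edgeR adjusted p 0.0228) in WT. In the mutants the call was kept without any single library (edgeR adjusted p at most 0.0316 and 0.0373) and without the males that had epididymis markers over 100 CPM (2.47 with an adjusted p of 0.0221 in Y665F, 1.76 with 0.0323 in Y665H). In WT it was lost without WT male 3 or any WT female (edgeR adjusted p 0.0576 to 0.0806), and with WT male 1 as the only male it was 1.22. The difference between the sexes was not shown to depend on genotype, with an interaction of -0.18 for Y665F (SE 0.70, edgeR adjusted p 0.903) and -0.65 for Y665H (SE 0.76, edgeR adjusted p 0.650). Against the same WT males, Gdf15 differed by -0.91 (SE 0.50) in Y665F and -1.38 (SE 0.55) in Y665H, which did not pass (edgeR adjusted p 0.365 and 0.402), and in females by -0.71 (SE 0.42) and -0.72 (SE 0.46; edgeR adjusted p 0.309 and 0.369).

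Counted over the 9 co-receptors and ligands, of which 7 or 8 passed the filter in a comparison, no member was called between a mutant and WT. The share of all tested genes called there was 3.33% for Y665F females, 3.34% for Y665H females and 0% for both groups of mutant males, and 1, 2, 2 and 4 of the 8 tested members had an unadjusted p under 0.05 for Y665F females, Y665F males, Y665H females and Y665H males. DESeq2 called Gfra2 in Y665F of both sexes, Gfra1 in Y665F males and Gfra4 in Y665H females. Between Y665H and Y665F males no member was called (1.03% of all genes; 2 members at an unadjusted p under 0.05, and 0 by DESeq2). Between the sexes, 3 of 8 members were called in WT (13.1% of all genes, 7.15% higher in males), 1 of 7 in Y665F (15.1%, 7.6% higher) and 2 of 8 in Y665H (28.8%, 15.2% higher), all of them higher in males. None of the 8 tested co-receptors and ligands was called in the interaction of sex with a mutation, where 0% of genes were called for Y665F and 0.0119% for Y665H; 1 and 2 of them had an unadjusted p under 0.05, and DESeq2 called 1 (Gfra1) and 0. The median log2 difference of the tested members was 1.40 between WT males and females and 0.74 between Y665H males and females, against 0.04 and 0.02 over all tested genes. In Y665F it was -0.14, with 3 of 7 members above 0, against 0.00 over all tested genes.

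**Figure D4:**
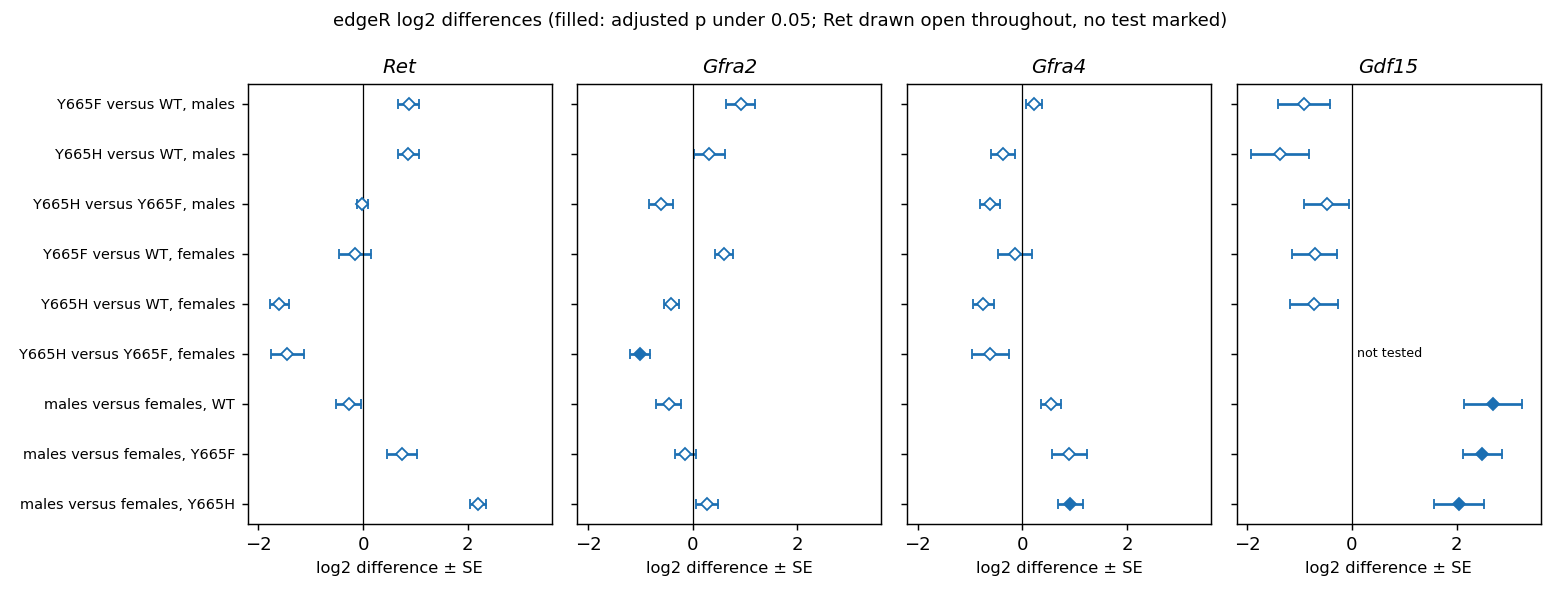
Fitted log2 differences with SE (horizontal axes) of Ret, Gfra2, Gfra4 and Gdf15 in 9 comparisons (vertical axis), on 8 libraries each. Filled points have an edgeR adjusted p under 0.05, and Ret is drawn open because it was chosen on these libraries. Gfra2 is filled for Y665H versus Y665F females, Gfra4 for the sexes in Y665H, and Gdf15 for the sexes in all 3 genotypes.

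The adaptors and enzymes that pass on the RET signal were read from a list of 19 genes, which many other receptors also use. Between Y665H and WT females 2 of 19 were called, both lower: Dok2, a docking protein of blood cells, at 13.0 ± 1.42 against 22.8 ± 5.65 CPM (log2 difference -0.79, SE 0.17, edgeR adjusted p 0.0416), and the kinase gene Src at 31.3 ± 4.41 against 43.0 ± 3.43 CPM (-0.45, SE 0.10, edgeR adjusted p 0.0428; SD, n = 4). Of all tested genes, 3.34% were called in this comparison. Dok2 and Src were each lost in most fits that left out a library (edgeR adjusted p up to 0.146 and 0.139). Between Y665H and Y665F females 3 of 18 were lower and 1 higher, where 17.4% of all tested genes were called (8.59% lower). Dok2 was lower by 1.72 on the log2 scale (log2 difference -1.72, SE 0.18, edgeR adjusted p 0.00165), as were the ubiquitin ligase gene Cbl (-0.48, SE 0.08) and Dok1 (-0.72, SE 0.13), each kept without any library, and Dok6 was higher by 0.80 (SE 0.23, edgeR adjusted p 0.0449; up to 0.105 without a library). Between males and females of Y665H 8 of 19 were higher in males and 2 lower, where 28.8% of all tested genes were called (15.2% higher). Gab2, a scaffold of PI3 kinase signalling, was at 111.5 ± 11.4 CPM in the males against 63.9 ± 4.71 CPM (log2 difference 0.65, SE 0.09, edgeR adjusted p 0.00122), while Grb10, an adaptor that dampens growth factor signals, was at 85.9 ± 11.8 and 139.1 ± 19.5 CPM (-0.85, SE 0.13, edgeR adjusted p 0.00176). Grb10 was also lower in males of WT (-1.32, SE 0.18, edgeR adjusted p 0.00756) and of Y665F (-0.67, SE 0.12, edgeR adjusted p 0.0125), and it kept these calls without any library.

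Of 10 ERK feedback and ETS genes, which rise with ERK signalling from many receptors, Spry4 and Spry1 were lower in Y665H than in WT females. In that comparison 3.34% of all tested genes were called. Spry4 was at 23.1 ± 1.88 against 41.1 ± 5.53 CPM (log2 difference -0.82, SE 0.11, edgeR adjusted p 0.0141) and Spry1 at 20.4 ± 1.13 against 30.6 ± 4.54 CPM (-0.56, SE 0.12, edgeR adjusted p 0.0413; SD, n = 4). The first was lost in 2 of the fits without a library (edgeR adjusted p up to 0.0600) and the second in 7 (up to 0.123). In Y665F against WT females, Spry4 was at -0.66 (SE 0.23) and Spry1 at -0.43 (SE 0.20), neither called (edgeR adjusted p 0.127 and 0.213). Dusp4 went the other way in Y665H against WT females (0.66, SE 0.18, edgeR adjusted p 0.0817). The 10 genes summed to 282 to 371 CPM in Y665H females and 318 to 367 CPM in WT females, which overlapped. Within Y665H, where 28.8% of all tested genes were called between the sexes (15.2% higher in males), 5 of the 10 were higher in males and 1 lower, among them Spred2 (0.46, SE 0.08, edgeR adjusted p 0.00349), Spry1 (0.68, SE 0.15, edgeR adjusted p 0.00864) and Spry4 (0.75, SE 0.18, edgeR adjusted p 0.0134) higher and Dusp4 lower (-1.29, SE 0.16, edgeR adjusted p 0.000730). The median log2 difference of the 10 genes was -0.23 between Y665H and WT females and 0.40 between Y665H males and females, against 0.00 and 0.02 over all tested genes. Etv5 was lower in Y665H than in Y665F females by 0.51 (log2 difference -0.51, SE 0.10, edgeR adjusted p 0.0114).

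Among other receptors of these ligands, Sorl1, a sorting receptor that binds GDNF, was lower in males of all 3 genotypes, with log2 differences of -2.23 (SE 0.42) in WT, -1.14 (SE 0.20) in Y665F and -2.38 (SE 0.23) in Y665H (edgeR adjusted p 0.0189, 0.0133 and 0.000303), and in WT 3 of the 8 fits without a library lost it (edgeR adjusted p up to 0.0563). Sdc3, a heparan sulphate proteoglycan that binds GDNF family ligands, was at 86.5 ± 12.8 CPM in Y665H females and 151.8 ± 18.7 CPM in Y665F females (-0.66, SE 0.13, edgeR adjusted p 0.0115; SD, n = 4). Among 13 tested stress genes known to respond with Gdf15, 2 were higher and 1 lower in males of Y665H and 3 higher in males of Y665F. Of all tested genes, 28.8% were called in Y665H (15.2% higher in males) and 15.1% in Y665F (7.6% higher). Atf4 was higher in both (0.40, SE 0.08, edgeR adjusted p 0.00725, and 0.39, SE 0.09, edgeR adjusted p 0.0241, the latter up to 0.0739 without a library). In WT only the cystine transporter gene Slc7a11 was called, at 35.5 ± 42.9 CPM in the males (1.35 to 97.8 CPM) against 0.268 ± 0.148 CPM (6.86, SE 1.27, edgeR adjusted p 0.0179, up to 0.0730 without a library). Of 8 transcription factors known to act on Ret, Hoxb5 was higher and the oestrogen receptor gene Esr1 lower in males of every genotype, with Esr1 at 122.5 ± 32.4 CPM in Y665H males and 287.9 ± 97.7 CPM in Y665H females (-1.39, SE 0.24, edgeR adjusted p 0.00326). Hoxb5 lost its call in 5 of the 8 fits without a library in WT and in 4 in Y665F, and Esr1 in 1 in Y665F. The comparisons of the sexes behind the calls of Hoxb5, Esr1 and Sorl1 called 13.1% of all tested genes in WT, 15.1% in Y665F and 28.8% in Y665H. Between Y665H and WT females none of the 6 tested was called. No gene of these 5 lists was called between mutant and WT males or in the interaction of sex with a mutation. Almost no gene at all was called there: 0% of all tested genes between either mutant and WT males, and 0% (Y665F) and 0.0119% (Y665H) in the interactions. The lists are thus no different from other genes in this.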

How the data were processed

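Stranded, ribosome-depleted total RNA libraries were sequenced as read pairs, per the labels' protocols. The authors deposited raw counts per gene symbol; the submitters' processing notes name Trimmomatic 0.36, STAR, SAMtools 1.9, Picard 2.9.2, HTSeq 0.9.1 and the build mm10. The annotation and the strand setting are not given in the sources used here, so reads of overlapping, antisense or near-identical genes are uncertain. Entries that name no gene (24.8 to 39.7% of counts) were left out.

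Each library was assigned by its title. Comparisons between 2 groups used 8 libraries and the sex interactions 16, with the edgeR 4.0.16 quasi-likelihood test (R 4.3.3, limma 3.58.1), TMM scaling, the default filter on low counts, Benjamini-Hochberg adjustment over all tested genes and a threshold of 0.05. P-values weigh a difference between groups against the spread between these libraries. The fit was tested on simulated data. Comparisons that share a group share its libraries and are not independent. Alternatives were scaling by library totals, DESeq2 1.42.0, no filter, a fit over all 24 libraries, the replicate number as a block, Rn45s left out of totals and each library left out. Leaving out males with over 100 CPM of epididymis genes was added after seeing the data. The members, the gene lists and the tests were chosen with earlier results of these data known. Genes named from the lists are at most 4 called genes per list and comparison, smallest p first; beside them stand the 10 members and the 5 genes most like Ret, with and without group means. Positions are from GENCODE M21 (GRCm38); promoter windows are from the RefSeq table (GRCm38.p6), in which 7 of the 10 members had a window. Within groups no 2 libraries agreed within sampling noise (chi-square per degree of freedom at least 17.3). Counting limits cover counting error only.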

Additional observations from a re-analysis of the deposited data

Results flagged for a closer look

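Of the 60 sets of 4 libraries (10 genes in 6 groups), 8 had a library whose gap to the nearest other exceeded Dixon's 95% limit; chance gives about 1 in 20 such sets. Gfra1 was at 248.4 CPM in WT male 2 and at 14.4 CPM in Y665H male 3. In Y665F male 4, Gdnf was at 2.12 CPM and Nrtn at 6.13 CPM. In Y665F female 3, Gdnf was at 0.858 CPM, Artn at 4.16 CPM and Gfra3 at 2.75 CPM. Gfra3 was at 1.42 CPM in Y665H female 1. Ret differed between the sexes in the effect of Y665H by 2.46 on the log2 scale, the difference it was chosen on.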

How the results depend on the processing

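Counts of called members other than Ret moved with the setting. For Y665F against WT, they went from 0 to 1 in females under scaling by library totals and under DESeq2 (0 to 2 without single libraries), and from 0 to 2 in males under DESeq2 and in the fit over all 24 libraries. For Y665H against WT females DESeq2 called 1, and for Y665H against Y665F females single omissions gave 1 to 2. Between WT males and females the 3 called became 5 under library totals, 6 under DESeq2, 0 without males over 100 CPM of epididymis genes and 0 to 6 without single libraries (6 without WT male 1, 1 without WT male 2, 0 without WT male 3 or any WT female). In Y665F, 1 became 2 under DESeq2 and in the fit over all 24 libraries, and 1 to 2 without single libraries. For the sex interactions DESeq2 called 1 for Y665F, and single omissions gave 0 to 1 for each mutation. With Rn45s left out of the totals, Y665F males were at 76.3 CPM for Ret and 7.98 CPM for Gfra4.

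Without males over 100 CPM of epididymis genes, which leaves WT male 1 as the only WT male and assumes that it varies like the other libraries, signs turned for Gfra1 (Y665F against WT males 1.20, Y665H against WT males 0.81, WT sexes -0.84, interactions 0.41 and 0.82), Gfra2 (Y665H against WT males -0.11, Y665F interaction -0.18) and Nrtn (Y665H against WT males 0.23); the cause was not tested. Gfra4 in Y665F against WT females turned to 0.012 under library totals and ran from -0.56 to 0.045 without single libraries (0.045 without Y665F female 1), and Gfra3 between Y665F sexes from -0.59 to 0.63 (0.63 without Y665F female 3).

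Same-numbered libraries did not deviate together (r from -0.411 to 0.706; no pair of groups had every r over 0.1). With the replicate number as a block, called members of the Y665H sexes went from 2 to 1 (Gdf15, edgeR adjusted p 0.0533), Gdf15 in WT sexes had an edgeR adjusted p of 0.0614, and Gfra3 between Y665F sexes was 0.0080.

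Counts over all genes spanned, across settings with all libraries or without the epididymis males, 390 to 2030 (521 as reported) for Y665F females, 0 to 2261 (0) for Y665F males, 32 to 1782 (516) for Y665H females and 0 to 203 (0) for Y665H males, each against WT, 1583 to 3897 (2689) and 0 to 1078 (164) for Y665H against Y665F females and males, 240 to 5987 (2079), 1173 to 4001 (2361) and 3431 to 5298 (4540) between the sexes of WT, Y665F and Y665H, and 0 to 1152 (0) and 0 to 689 (2) for the interactions of Y665F and Y665H. Library totals moved the median log2 difference of all genes from 0.02 to 0.15 for Y665F against WT females, from -0.03 to -0.18 for Y665H against Y665F females, from 0.04 to 0.22 between WT sexes and from 0.02 to 0.17 between Y665H sexes, so differences are relative to TMM. Depth limits Pspn, Gdnf and female Gdf15 most.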
